A study of Homo sapiens with 6 samples.

Results

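The genes described here encode the constitutive proteasome: the subunits of its 20S core and 19S regulatory particle, the chaperones that assemble them, and the activators and inhibitor that bear a PSM symbol. They were taken as the rows of the deposited expression table whose symbol is PSMA to PSMG followed by a number, without the interferon-inducible genes PSMB8, PSMB9, PSMB10, PSME1 and PSME2. This gave 43 of the 31814 rows of the table, with 41 different symbols, since PSMA1 and PSMA2 have 2 rows each. PSMA8 and PSMB11, the subunits of testis and thymus, fit the same naming rule but were not among these rows. The choice of rows used names alone and no measured value.

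The proteasome degrades proteins that carry chains of ubiquitin. Its core is a barrel of 4 stacked rings. The outer rings are built of alpha subunits, which gate the entry, and the inner rings of beta subunits, among them the proteolytic subunits PSMB5, PSMB6 and PSMB7. The 19S particle caps the barrel: its base holds a ring of ATPases that unfold the substrate, and its lid holds the deubiquitinase PSMD14. Each subunit has its place in the particle, and cells usually induce these genes together through the transcription factor NFE2L1 when proteasome activity falls short.

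RNA came from H69 cells, a human cell line, treated for 24 h with trichostatin A (TSA) at 1 µM, an inhibitor of histone deacetylases, or with the solvent DMSO (vehicle), with 3 libraries per group. The name H69 is used for more than one human line and the labels give no tissue. A tag of the treated samples has HSA where the protocol and the design text have TSA, and they are called TSA here. Whether the 3 libraries of a group stem from different cultures is not stated in the labels. The p-values therefore reflect the spread among these libraries alone, and that spread may be technical. Levels are given as TPM, counts corrected for the length of a gene and the size of a library, and a change is a difference of log2(TPM + 1), TSA minus vehicle, with its standard error. A gene is said to rise or fall where limma's two-sided test, with Benjamini-Hochberg adjustment over the 17596 genes tested, gave an adjusted p under 0.05. The libraries are of whole cultures, so that less of a transcript per cell and fewer cells with it cannot be told apart.

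Whole reads recovered from the TPM values, a lower bound of the depth, were between 22533307 and 26148651 per library, and the proteasome genes had between 161 and 38549 reads each per library. Neuroendocrine markers were present in vehicle (INSM1 at 614 TPM, CHGA at 138 TPM), as were EPCAM at 600 TPM and KRT19 at 208 TPM. Of the 7 fibroblast, blood and endothelial markers present in the table, all were under 1 TPM in each vehicle library, and in TSA only COL1A1 exceeded this, at 4.51 to 6.42 TPM. The share of TPM from mitochondrial genes was 12.3%, 4.97% and 10.1% in vehicle libraries 1, 2 and 3 and 16.9%, 7.65% and 10.4% in TSA libraries 1, 2 and 3.

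The proteasome genes did not move together after TSA. Of the 43 rows, all of which passed the filter on low values, 8 were higher after TSA, 17 were lower, and 18 did not pass the test. Among all tested genes 28.0% were higher and 34.2% lower (62.2% in either direction), beside 18.6% and 39.5% of the proteasome rows. PSMA5, an alpha ring subunit, and PSMD2, a base subunit that docks ubiquitin receptors, rose 2.52-fold and 2.04-fold. PSMD5, a chaperone of base assembly, fell 2.30-fold, and PSMB5, the chymotrypsin-like protease, fell 2.23-fold. These 4 were the only members with a change of at least 2-fold (9.30% of the rows), a size that 6407 of the 17596 tested genes (36.4%) reached.

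The median change of the 43 rows was −0.22, against −0.095 for all tested genes, and the median size of the change regardless of sign was 0.47, against 0.72. Without TSA library 1 the order of the medians turned, to −0.19 for the proteasome genes and −0.25 for all tested genes. The 3 TSA values lay wholly above the 3 vehicle values in 9 rows and wholly below them in 19, and overlapped them in 15. Among all tested genes 30.8% had TSA wholly above and 36.2% wholly below (67.0% together). Counted with 1 row per symbol, 8 genes rose, 16 fell and 17 did not pass the test. The count of rows that rose was 5 without vehicle library 1, without vehicle library 3, without TSA library 2 and without TSA library 3, and the count of rows that fell was 11 under median-of-ratios scaling, which moved the median of all tested genes by 0.12.

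**Figure D1:**
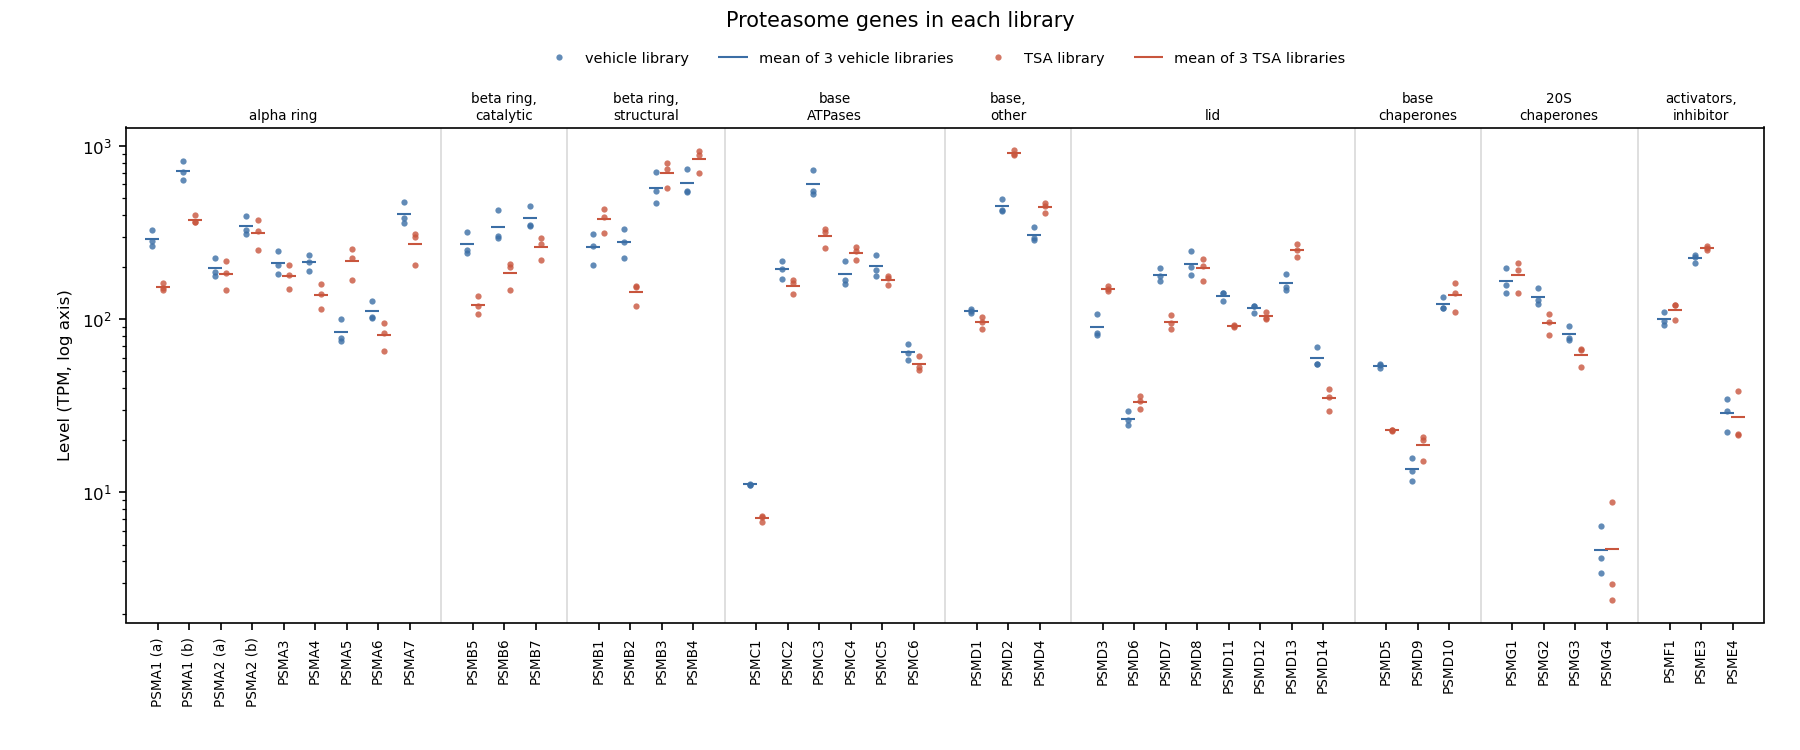
Level of each proteasome gene (TPM, log axis) in the 3 vehicle and 3 TSA libraries, ordered by role, with points for libraries and bars for group means; (a) and (b) mark the 2 rows of PSMA1 and PSMA2. Neighbours within a role went different ways: PSMA5 went from 84.5 to 216 TPM while PSMA1 (a) went from 291 to 154 TPM, and PSMD2 reached 910 TPM.

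The sequence before the transcription start is shown for 4 genes, a pair that rose (PSMA5 and PSMD3) and a pair that fell (PSMC3 and PSMD5), so that the letters can be compared between genes with opposite changes. They are examples: PSMD2 rose more than PSMD3, and PSMB5 fell more than PSMC3. Each sequence is the 250 bases before the start, 5′ to 3′ on the strand of the gene. It was taken from RefSeq's promoter windows on GRCh38.p14, while the deposited values rest on hg19. PSMA5 is at chr1:109426449-109426698 (minus strand), PSMD3 at chr17:39980557-39980806 (plus strand), PSMC3 at chr11:47426440-47426689 (minus strand) and PSMD5 at chr9:120842923-120843172 (minus strand). Capitals mark matches on either strand to TGACNNNGC, the core of the antioxidant response element bound by NFE2L1 and its relatives, to CCAAT, the CCAAT box, and to GGGCGG, the GC box. A match on the opposite strand reads ATTGG for the CCAAT box and CCGCCC for the GC box.
PSMA5: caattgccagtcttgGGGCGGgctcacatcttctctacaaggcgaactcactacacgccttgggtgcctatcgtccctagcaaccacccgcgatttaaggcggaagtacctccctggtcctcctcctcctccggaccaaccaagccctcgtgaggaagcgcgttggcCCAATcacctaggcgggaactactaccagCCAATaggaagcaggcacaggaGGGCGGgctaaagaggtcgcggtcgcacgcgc
PSMD3: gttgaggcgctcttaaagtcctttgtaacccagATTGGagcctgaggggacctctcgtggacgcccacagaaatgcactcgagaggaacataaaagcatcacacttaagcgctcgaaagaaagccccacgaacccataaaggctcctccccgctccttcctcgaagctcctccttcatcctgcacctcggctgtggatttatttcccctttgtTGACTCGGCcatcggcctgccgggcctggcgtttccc
PSMC3: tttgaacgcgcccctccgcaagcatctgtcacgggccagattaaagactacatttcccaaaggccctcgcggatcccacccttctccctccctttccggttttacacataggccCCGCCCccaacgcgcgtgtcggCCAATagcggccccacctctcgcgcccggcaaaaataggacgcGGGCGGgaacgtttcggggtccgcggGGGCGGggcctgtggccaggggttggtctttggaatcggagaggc
PSMD5: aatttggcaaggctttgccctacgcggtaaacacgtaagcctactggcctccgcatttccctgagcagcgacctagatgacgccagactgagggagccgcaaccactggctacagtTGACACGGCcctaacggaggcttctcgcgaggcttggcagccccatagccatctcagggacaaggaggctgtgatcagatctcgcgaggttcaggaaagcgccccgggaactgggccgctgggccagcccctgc
Counted back from the start, PSMA5 held CCAAT at 83 to 79 and at 54 to 50 and GGGCGG at 235 to 230 and at 32 to 27. PSMC3 held CCAAT at 114 to 110 and GGGCGG at 136 to 131, 71 to 66 and 45 to 40. PSMD3, which rose, and PSMD5, which fell, each held TGACNNNGC, at 37 to 29 and at 134 to 126. PSMD3 also held CCAAT at 217 to 213.

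Over the whole windows of 300 bases (250 before and 50 after the start), 35 of the 41 symbols matched a window, 43 windows in all, and PSMA7, PSMB1, PSMB6, PSMB7, PSMD4 and PSMG3 did not. TGACNNNGC was present in 12 of the 43 windows (27.9%), against 13.3% of all 35116 windows, and GGGCGG in 29 (67.4%), against 45.0%. CCAAT was present in 18 windows (41.9%), against 34.6%. Genes with a match were found in both directions: of the 12 genes with TGACNNNGC 2 rose, 3 fell and 7 did not pass the test. Of the 24 genes with GGGCGG 4 rose, 9 fell and 11 did not pass, and of the 18 with CCAAT 3 rose, 6 fell and 9 did not pass. Genes without a match were not set beside these, and whether the letters go with direction was not tested. A match is a description of letters, not a site in use.

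The alpha ring, which gates the core, was mostly lower: with 1 row per symbol, 4 of its 7 genes (57.1%, beside 34.2% of all tested genes) fell (PSMA1, PSMA4, PSMA6 and PSMA7), PSMA5 rose, and PSMA2 and PSMA3 did not pass the test. PSMA5 (ENSG00000143106.8) was at 75.2, 101 and 77.7 TPM in vehicle libraries 1, 2 and 3 and at 167, 254 and 225 TPM in TSA libraries 1, 2 and 3. All TSA libraries were well above all vehicle libraries, a change of 1.33 with a standard error of 0.19 and an adjusted p of 0.00087 by limma. PSMA1 (row a, ENSG00000129084.13) went the other way, from 263, 328 and 282 TPM to 151, 162 and 148 TPM, a change of −0.91 with a standard error of 0.11 and an adjusted p of 0.00044. Its second row (row b, ENSG00000256206.2) went from 718 ± 91.1 to 376 ± 21.5 TPM (SD, n = 3 each), a change of −0.93. The 2 rows are overlapping gene models, and in vehicle library 1 the reads recovered for them were 6528 and 5176, so they appear to share reads and are not independent measurements.

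PSMA7 (ENSG00000101182.10), at the highest level among the alpha genes with a single row, was at 360.2, 475 and 382 TPM in vehicle and at 205, 312 and 297 TPM in TSA. The groups did not overlap, and the change was −0.59 with a standard error of 0.19 and an adjusted p of 0.034. PSMA4 fell by 0.64 (213 ± 21.8 to 137 ± 22.4 TPM, SD, n = 3 each, adjusted p of limma 0.0084) and PSMA6 by 0.45 (111 ± 14.5 to 81.2 ± 14.6 TPM, adjusted p of limma 0.045). PSMA3 was at 212 ± 34.1 and 179 ± 28.9 TPM, and PSMA2 (row a) at 196 ± 25.3 and 183 ± 34.2 TPM, with overlapping groups and adjusted p-values of limma of 0.23 and 0.60. Row b of PSMA2, which also appears to share reads with row a, gave an adjusted p of 0.52 in limma. Median-of-ratios scaling ended the calls of PSMA4, PSMA6 and PSMA7 (adjusted p of limma 0.065, 0.23 and 0.16). PSMA7 also missed the threshold without vehicle library 2 (0.097), vehicle library 3 (0.073) or TSA library 3 (0.055), and PSMA6 without any single library except TSA library 2 (0.065 to 0.13).

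All 3 catalytic beta subunits fell, as did 34.2% of all tested genes. PSMB5 (ENSG00000100804.14), which cuts after hydrophobic residues and is the main target of clinical proteasome inhibitors, was at 243, 319.9 and 252 TPM in vehicle and at 107, 136 and 119.7 TPM in TSA. Its highest TSA value was far below its lowest vehicle value, a change of −1.16 with a standard error of 0.15 and an adjusted p of 0.00052 by limma. PSMB6 (ENSG00000142507.5), the caspase-like protease, went from 301, 426 and 294 TPM to 148, 207 and 199.8 TPM, a change of −0.87 with a standard error of 0.20 and an adjusted p of 0.0075. PSMB7 (ENSG00000136930.8), the trypsin-like protease, went from 346, 451 and 351 TPM to 218, 296 and 272 TPM, a change of −0.55 with a standard error of 0.16 and an adjusted p of 0.024. The groups did not overlap for any of these genes, and 36.2% of all tested genes had TSA wholly below vehicle. The summed level of the 3 genes was 995 ± 176 TPM in vehicle and 568 ± 85.3 TPM in TSA (SD, n = 3 each). The call of PSMB7 was lost without vehicle library 2 (adjusted p of limma 0.062) and without TSA library 3 (0.058). It was also lost under median-of-ratios scaling (0.14) and with voom on recovered reads (0.070).

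The structural beta subunits, which build the same ring and have no protease activity, did not follow the catalytic ones: PSMB1 rose, PSMB2 fell, and PSMB3 and PSMB4 did not pass the test. PSMB2 (ENSG00000126067.7) was at 226, 329.8 and 280.1 TPM in vehicle and at 119.5, 156 and 154 TPM in TSA. With no overlap between the groups, its change was −0.95 with a standard error of 0.17 and an adjusted p of 0.0030 by limma. PSMB1 (ENSG00000008018.8) was at 205, 312 and 266 TPM in vehicle and at 314, 431 and 391 TPM in TSA, a change of 0.54 with a standard error of 0.19 and an adjusted p of 0.045. Its lowest TSA value was only just above its highest vehicle value, and it missed the threshold without vehicle library 1 (0.12), vehicle library 3 (0.097), TSA library 2 (0.13) or TSA library 3 (0.12).

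PSMB4 (ENSG00000159377.6), at the highest level of all members in vehicle with 1 row per symbol, had 545, 734 and 549.9 TPM in vehicle and 699, 941 and 885 TPM in TSA. Vehicle library 2 lay above TSA library 1, and the adjusted p of limma was 0.061 for a change of 0.47 with a standard error of 0.18. In 8 of 19 alternative settings PSMB4 passed the test, among them the fits without vehicle library 2 (0.026) and without TSA library 1 (0.019). PSMB3 averaged 574 ± 123 TPM in vehicle and 702 ± 114 TPM in TSA (SD, n = 3 each), with overlapping groups and an adjusted p of 0.24 in limma. The summed level of the 4 structural beta genes was 1723 ± 312 TPM in vehicle and 2065 ± 319 TPM in TSA.

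**Figure D2:**
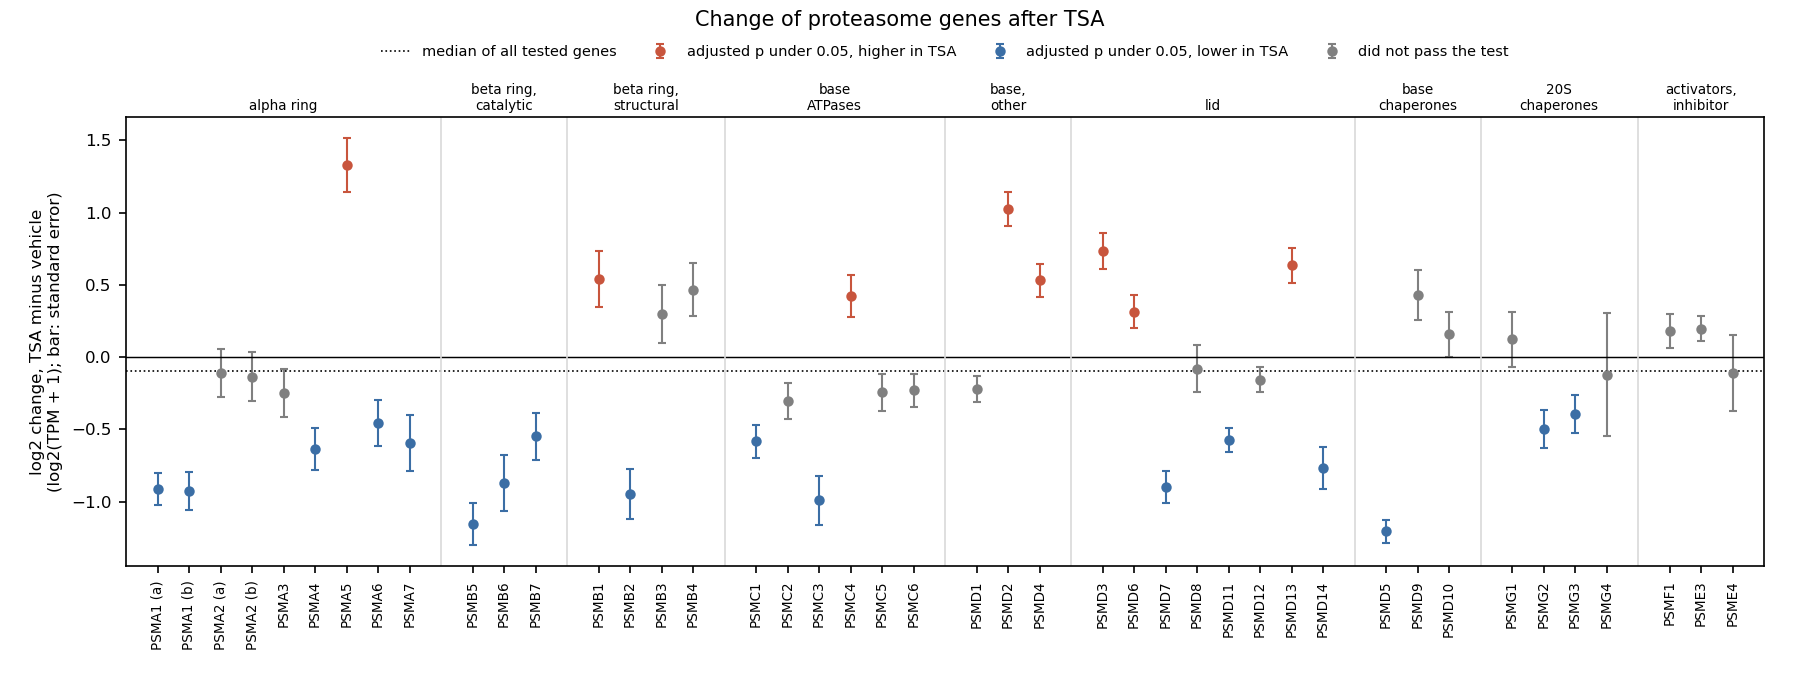
Change of each proteasome gene, TSA minus vehicle on the log2(TPM + 1) scale, with its standard error, by role; red and blue points had an adjusted p under 0.05 in limma, grey points did not, and the dotted line is the median of all tested genes (−0.095). The catalytic beta genes lie between −1.16 and −0.55, while the lid has 3 genes above 0 and 3 below 0 past the test.

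In the base of the 19S particle, a ring of ATPases carried by larger subunits, 3 of 9 genes rose (33.3%) and 2 fell (22.2%). The shares of all tested genes were 28.0% and 34.2%. Among the 6 ATPases PSMC3 and PSMC1 fell, PSMC4 rose, and PSMC2, PSMC5 and PSMC6 did not pass the test. PSMC3 (ENSG00000165916.4) was at 547, 731 and 529.9 TPM in vehicle, on a level with PSMB4, and at 257, 330.1 and 318 TPM in TSA. Every TSA library was below every vehicle library, a change of −0.99 with a standard error of 0.17 and an adjusted p of 0.0022 by limma. PSMC4 (ENSG00000013275.3), another ATPase of the same ring, went from 159, 217 and 168 TPM to 219, 261 and 248 TPM, a change of 0.43 with a standard error of 0.14 and an adjusted p of 0.038. Its groups were separated by little, and it missed the threshold without vehicle library 1 (0.12), vehicle library 3 (0.12), TSA library 2 (0.12) or TSA library 3 (0.11).

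PSMC1 (ENSG00000100764.9) had the lowest level of the ATPases, 11.2, 11.1 and 11.1 TPM in vehicle and 7.26, 7.27 and 6.78 TPM in TSA, a change of −0.58 with a standard error of 0.11 and an adjusted p of 0.0039 by limma. Its processed copy PSMC1P1 was also counted, with 5.27 ± 0.807 TPM in vehicle and 2.61 ± 1.09 TPM in TSA (SD, n = 3 each), so that reads may have been split between them and the level of PSMC1 is uncertain. PSMC2 averaged 194 ± 22.7 and 156 ± 15.4 TPM (SD, n = 3 each) in vehicle and TSA. PSMC5 was at 177, 236 and 192 TPM in vehicle and at 157, 178 and 173 TPM in TSA, and PSMC6 was at 64.2, 71.5 and 58.4 TPM in vehicle and at 50.9, 61.0 and 53.0 TPM in TSA. Their adjusted p-values by limma were 0.072, 0.15 and 0.12, and PSMC2 alone of these had all TSA values below all vehicle values.

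Of the base subunits without ATPase activity, PSMD2 and PSMD4 rose and PSMD1 did not pass the test. PSMD2 (ENSG00000175166.12), a scaffold that docks shuttle receptors, was at 419, 494 and 429 TPM in vehicle and at 885, 948 and 897 TPM in TSA, where it had the highest level of all members. Its TSA libraries were close to each other and far above vehicle, a change of 1.03 with a standard error of 0.12 and an adjusted p of 0.00035 by limma. PSMD4 (ENSG00000159352.11), a ubiquitin receptor, went from 295, 341 and 286 TPM to 411, 471 and 451 TPM, without overlap, a change of 0.53 with a standard error of 0.11 and an adjusted p of 0.0060. PSMD1 (ENSG00000173692.8), the scaffold that pairs with PSMD2 in the base, was at 109, 111 and 115 TPM in vehicle and at 103, 96.8 and 88.4 TPM in TSA. These values did not overlap, yet the adjusted p for a change of −0.22 was 0.067 in limma.

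Of the 8 lid genes PSMD3, PSMD6 and PSMD13 rose, PSMD7, PSMD11 and PSMD14 fell, and PSMD8 and PSMD12 did not pass the test. The shares, 37.5% higher and 37.5% lower, are near the 28.0% and 34.2% of all tested genes. PSMD3 (ENSG00000108344.10), a scaffold subunit, was at 83.5, 107 and 81.1 TPM in vehicle and at 146, 155 and 149 TPM in TSA, all well above vehicle, a change of 0.73 with a standard error of 0.12 and an adjusted p of 0.0019 by limma. PSMD13 (ENSG00000185627.13), another scaffold subunit, went from 153, 182 and 147 TPM to 228, 270.2 and 251 TPM, a change of 0.64 with a standard error of 0.12 and an adjusted p of 0.0034. PSMD6 was at 24.4, 29.5 and 26.2 TPM in vehicle and at 30.4, 36.3 and 33.6 TPM in TSA. This small shift had an adjusted p of 0.049 in limma and missed the threshold without vehicle library 1 (0.15), vehicle library 3 (0.12), TSA library 2 (0.17) or TSA library 3 (0.13).

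The catalytic pair of the lid fell. PSMD14 (ENSG00000115233.7), the metalloprotease that removes ubiquitin chains from substrates, was at 55.5, 69.0 and 55.1 TPM in vehicle and at 29.4, 39.8 and 35.4 TPM in TSA, a change of −0.77 with a standard error of 0.15 and an adjusted p of 0.0036 by limma. PSMD7 (ENSG00000103035.6), its binding partner without protease activity, went from 166, 198 and 177 TPM to 88.4, 105 and 94.7 TPM, a change of −0.90 with a standard error of 0.11 and an adjusted p of 0.00045. In both genes the TSA values lay wholly below the vehicle values. With length and GC trends removed from each library PSMD14 did not pass the test (adjusted p of limma 0.071). PSMD11 (ENSG00000108671.5), a scaffold subunit, went from 128, 141 and 141 TPM to 90.7, 92.3 and 91.8 TPM, a change of −0.57 with a standard error of 0.08 and an adjusted p of 0.00088.
The 2 remaining lid genes had overlapping groups. PSMD8 (ENSG00000099341.7), the most abundant lid transcript in vehicle, was at 202, 247 and 179 TPM in vehicle and at 165, 223 and 204 TPM in TSA, and PSMD12 was at 116 ± 6.77 and 104 ± 4.76 TPM (SD, n = 3 each). Their adjusted p-values by limma were 0.69 and 0.16.

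Among the chaperones that assemble the base, PSMD5 (ENSG00000095261.9) fell in a narrow band of values. It was at 54.6, 52.4 and 55.0 TPM in vehicle and at 22.6, 23.0 and 23.0 TPM in TSA, a change of −1.20 with a standard error of 0.08. Its adjusted p of 3.7e-05 by limma was the smallest of all members. Its antisense gene PSMD5-AS1 averaged 18.1 ± 2.35 TPM in vehicle and 27.6 ± 8.64 TPM in TSA (SD, n = 3 each, adjusted p of limma 0.066), and since no source used here gives the strand setting of the counting, reads of the overlapping genes may not have been told apart. PSMD9 was at 13.3, 15.9 and 11.7 TPM in vehicle and at 15.1, 21.0 and 20.1 TPM in TSA, with an adjusted p of 0.065. PSMD10, also known as gankyrin, was at 116, 135 and 116 TPM in vehicle and at 110.2, 162 and 142 TPM in TSA, with an adjusted p of 0.41. Both had overlapping groups, and PSMD9 passed the test of limma without vehicle library 2 (0.046) and without TSA library 1 (0.014).

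The chaperones of the core work as pairs, PSMG1 with PSMG2 and PSMG3 with PSMG4, and in each pair a single gene fell. PSMG2 (ENSG00000128789.16) was at 129, 151 and 123 TPM in vehicle and at 81.5, 107 and 96.4 TPM in TSA, a change of −0.50 with a standard error of 0.13 and an adjusted p of 0.015 by limma. PSMG3 went from 78.3, 91.6 and 75.4 TPM to 53.0, 66.4 and 67.2 TPM, a change of −0.39 with a standard error of 0.13 and an adjusted p of 0.035. Neither call held under median-of-ratios scaling (adjusted p of limma 0.12 and 0.25) or with voom on recovered reads (0.066 and 0.17). The call of PSMG3 was also lost without any single library (0.053 to 0.10). PSMG1 (ENSG00000183527.7), the most abundant of the 4, was at 141, 198 and 157 TPM in vehicle and at 142, 210.0 and 191 TPM in TSA, with an adjusted p of 0.60.
PSMG4 (ENSG00000180822.7) had the lowest level of all members and spread widely, with 6.37, 3.44 and 4.19 TPM in vehicle and 8.81, 2.39 and 2.97 TPM in TSA. Its change was −0.12 with a wide standard error of 0.43, and the adjusted p by limma was 0.82.

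The alternative activators PSME3 and PSME4, which open the core without ATPases, and the inhibitor PSMF1 did not pass the test. PSME3 (ENSG00000131467.6), a nuclear activator, was at 212, 234 and 230.0 TPM in vehicle and at 259, 265 and 251 TPM in TSA, without overlap, a change of 0.20 with a standard error of 0.09 and an adjusted p of 0.089 by limma. PSME4 (ENSG00000068878.10), also nuclear, was at 34.5, 22.4 and 29.5 TPM in vehicle and at 38.7, 21.6 and 21.5 TPM in TSA, and its library 1 was the highest of each group. PSMF1 was at 93.0, 110.1 and 97.1 TPM in vehicle and at 99.0, 120.1 and 122 TPM in TSA, and these values overlapped as well. The adjusted p-values of PSME4 and PSMF1 by limma were 0.74 and 0.23.

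Differences in change between 2 genes show most directly as their ratio within a library. The pairs were chosen after the values were seen, so the ratios are descriptions with no test. The ratio of PSMB5 to PSMB4 was 0.445, 0.436 and 0.458 in vehicle and 0.153, 0.145 and 0.135 in TSA, although PSMB4 itself did not pass the test. The ratio of PSMB2 to PSMB1 was 1.10, 1.06 and 1.05 in vehicle and 0.381, 0.363 and 0.394 in TSA. In the alpha ring PSMA5 was the less abundant gene beside PSMA6 in vehicle, at ratios of 0.735, 0.788 and 0.755, and the more abundant in TSA, at 2.55, 2.69 and 2.70. These ratios varied little between the libraries of a group, less than the levels they were made from.

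In the 19S particle the ratio of PSMC3 to PSMC4 was 3.44, 3.36 and 3.15 in vehicle and 1.17, 1.26 and 1.28 in TSA. The ratio of PSMD14 to PSMD13 was 0.362, 0.378 and 0.376 in vehicle and 0.129, 0.147 and 0.141 in TSA. The base chaperone PSMD5 was also set against PSMD2. It was at 0.130, 0.106 and 0.128 of the level of PSMD2 in vehicle and at 0.0256, 0.0243 and 0.0256 of it in TSA. In each of these pairs the groups were far apart relative to their spread. Not every pair looked at was so: PSMD10 to PSMC4 was at 0.7275, 0.6202 and 0.6884 in vehicle and at 0.5036, 0.6201 and 0.5719 in TSA. Levels of the 14 core subunits were also more unequal after TSA, with a standard deviation of log2 TPM across them of 0.766 to 0.814 in the vehicle libraries and 0.927 to 0.957 in the TSA libraries. For the 17 subunits of the 19S particle this was 1.39 to 1.45 in vehicle and 1.60 to 1.64 in TSA. Over all 43 rows the groups overlapped, with 1.49 to 1.67 in vehicle and 1.51 to 1.73 in TSA.

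**Figure D3:**
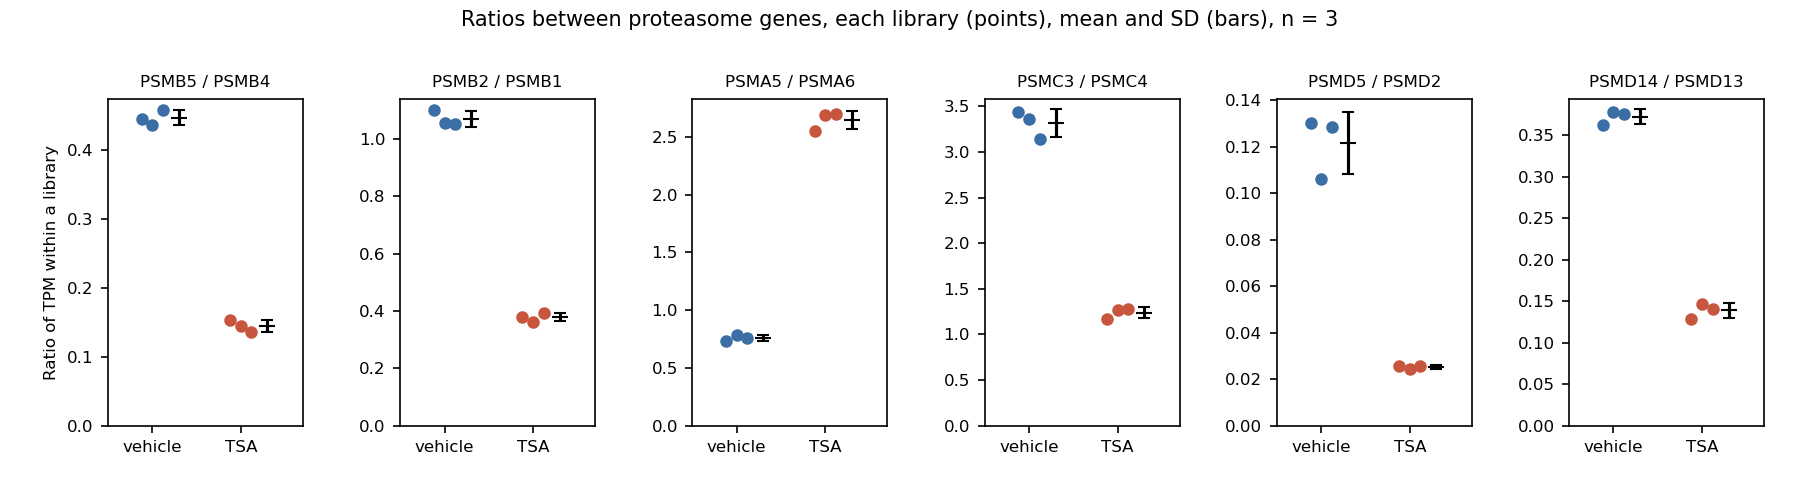
Ratio of the TPM of 2 proteasome genes within each library (points; bars give mean and SD, n = 3) for 6 pairs chosen after the values were seen, each on a linear axis from 0. Vehicle and TSA libraries are apart in every pair, for example 0.436 to 0.458 against 0.135 to 0.153 for PSMB5 over PSMB4.

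The order of levels within the family also changed. With 1 row per symbol, PSMB4, PSMC3 and PSMB3 led in vehicle at 609, 603 and 574 TPM, which did not differ beyond their spread (SD 108, 112 and 123 TPM). In TSA PSMD2, PSMB4 and PSMB3 led at 910, 841 and 702 TPM, and PSMC3 was in place 6 at 302 TPM. PSMB5 moved from place 11 to place 25 and PSMA5 from place 32 to place 12. PSMG4, PSMC1 and PSMD9 held the lowest levels in both groups. The summed TPM of all 43 rows was 8460, 10766 and 8753 in vehicle and 7733, 9694 and 8993 in TSA, so the total overlapped between groups.

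The libraries themselves differed across the family. Vehicle library 2 was the highest vehicle library in 36 of the 43 rows (83.7%), against 37.4% of all tested genes, and TSA library 1 was the lowest TSA library in 37 rows (86.0%), against 34.8%. These are the vehicle library with the lowest and the TSA library with the highest mitochondrial share. TSA library 2, with the lowest mitochondrial share in TSA (7.65%), was the highest TSA library in 38 rows, against 28.9% of all tested genes. With mitochondrial genes left out, 11 rows rose and 18 fell, while of all tested genes 5158 were higher, against 4929, and 5728 lower, against 6013. The 5 genes whose profile over the 6 libraries was most like the mean profile of the proteasome genes, among 10236 others at 10 TPM or more, were LRRD1, CYP51A1, PPT1, FAM177A1 and GGPS1, with Pearson r from 0.991 to 0.995 over 6 libraries. This likeness was read from 6 points that share 2 groups and is a description. LRRD1 was at 61.1, 80.1 and 61.2 TPM in vehicle and at 48.5, 62.9 and 58.5 TPM in TSA. CYP51A1 was nearly in proportion to it, at 111, 145 and 112 TPM and at 88.6, 115 and 107 TPM. These 2 genes may therefore not be independent measurements.

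At an FDR under 0.05 the authors' deposited table had 8 rows of the family higher and 12 lower in TSA, where 21.8% and 19.5% of its 31814 genes were higher and lower. Of these, 7 and 12 were also called by limma here. The authors' deposited table did not call PSMD6, PSMA6, PSMA7, PSMG2, PSMG3 and PSMB7, and called PSMD9 (log2 fold change 0.54, FDR 0.037). For PSMA5, PSMD2, PSMB5 and PSMD5 the authors' deposited table gave log2 fold changes of 1.44, 1.10, −1.09 and −1.17.

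The genes around the constitutive proteasome were followed in lists, of which those outside the immunoproteasome list held 55 tested genes, 18 of them (32.7%) higher and 20 (36.4%) lower, beside 28.0% and 34.2% of all tested genes. Immunoproteasome subunits replace the catalytic beta subunits in immune settings, and PSME1 and PSME2 form the interferon-inducible activator PA28. Of this list of 5 genes 4 were tested, and PSME1 and PSME2 rose. PSME1 went from 34.0, 59.4 and 43.9 TPM to 141, 214 and 194 TPM, a change of 1.99 with a standard error of 0.24 and an adjusted p of 0.00041 by limma. PSME2 went from 69.4, 83.6 and 59.9 TPM to 121, 155 and 146 TPM, a change of 0.98 with a standard error of 0.15 and an adjusted p of 0.0015. Neither gene had overlapping groups.

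PSMB9, which takes the place of PSMB6, was listed at 0 in every vehicle library and had 1.30, 2.10 and 1.29 TPM in TSA, with an adjusted p of 0.00054 by limma. It passed the filter on low values only through the TSA libraries, so it had to differ. PSMB8, which takes the place of PSMB5, was listed at 0 in vehicle and at 0.755, 0.869 and 1.20 TPM in TSA, and was under the filter. PSMB10, which takes the place of PSMB7, was at 10.3, 10.7 and 8.61 TPM in vehicle and at 6.91, 11.9 and 13.9 TPM in TSA, with an adjusted p of 0.79. In TSA the 3 inducible protease genes therefore stood at 0.940, 1.56 and 10.9 TPM on average, beside 121, 185 and 262 TPM for PSMB5, PSMB6 and PSMB7.

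Of 5 further parts and assembly factors ADRM1 rose and KIAA0368 fell. ADRM1, a ubiquitin receptor of the base, went from 78.1, 91.7 and 72.9 TPM to 119.7, 129 and 140.4 TPM, a change of 0.68 with a standard error of 0.12 and an adjusted p of 0.0022 by limma. KIAA0368, an adaptor that holds core and 19S particle together, went from 53.1, 39.4 and 52.9 TPM to 8.68, 4.16 and 4.76 TPM, a change of −2.89 with a standard error of 0.26 and an adjusted p of 0.00012. No TSA value of either gene came near the vehicle values. POMP, the maturation factor of the core, averaged 237 ± 49.4 TPM in vehicle and 310 ± 67.9 TPM in TSA (SD, n = 3 each). SHFM1, a small lid subunit, was at 228 ± 51.2 and 197 ± 39.4 TPM. PAAF1, a factor that binds the ATPases, was at 24.6 ± 2.68 and 24.7 ± 1.90 TPM. All 3 had overlapping groups. The adjusted p-values by limma were 0.17, 0.47 and 0.97.

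Of the enzymes bound to the proteasome, the ubiquitin ligase UBE3C rose from 74.0 ± 4.28 to 108 ± 14.5 TPM and the ligase UBE3A fell from 113 ± 8.90 to 53.1 ± 5.59 TPM (SD, n = 3 each, adjusted p of limma 0.0064 and 0.00020). The deubiquitinase USP14 was at 206 ± 13.8 and 244 ± 19.7 TPM and UCHL5 at 93.8 ± 6.66 and 97.2 ± 5.37 TPM, with adjusted p-values of 0.078 and 0.65 by limma. Among genes that encode ubiquitin itself, UBB rose by 0.69 on the log2 scale, from 1200 ± 218 to 1925 ± 292 TPM, and RPS27A by 0.68, from 222 ± 21.5 to 361 ± 77.8 TPM (adjusted p of limma 0.023 and 0.015). UBB and RPS27A missed the threshold without vehicle library 1 (0.079 and 0.0503), vehicle library 3 (0.095 and 0.056), TSA library 2 (0.075 and 0.0501) or TSA library 3 (0.080 and 0.059).

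In the NFE2L1 pathway, which induces proteasome genes, 5 of 13 genes rose (38.5%) and 3 fell (23.1%). Among all tested genes 28.0% were higher and 34.2% lower. NFE2L1 itself was at 177, 175 and 179.9 TPM in vehicle and at 173, 148 and 143 TPM in TSA, with an adjusted p of 0.12 by limma. Its relative NFE2L3 went from 20.4, 22.3 and 20.2 TPM to 56.8, 64.4 and 63.8 TPM, a change of 1.51 with a standard error of 0.10 and an adjusted p of 3.1e-05. SYVN1, a ubiquitin ligase of the endoplasmic reticulum, went from 40.5, 41.9 and 37.8 TPM to 125, 131 and 139 TPM, a change of 1.69 with a standard error of 0.09 and an adjusted p of 1.5e-05. NFE2L3 and SYVN1 were far above vehicle in each TSA library. The TSA values of NFE2L1 all lay just below its vehicle values, and among the alternatives it passed the test only without TSA library 1 (adjusted p of limma 0.027) and with length and GC trends removed (0.025).

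VCP, the ATPase p97 that extracts proteins from membranes, rose by 0.42 on the log2 scale, from 431 ± 6.30 to 578 ± 38.7 TPM (SD, n = 3 each, adjusted p of limma 0.011). KEAP1, the adaptor that directs the degradation of NFE2L2, went from 56.8, 73.9 and 56.4 TPM to 15.6, 18.6 and 21.9 TPM, a change of −1.69 with a standard error of 0.16 and an adjusted p of 0.00016 by limma. All TSA values of KEAP1 were below all vehicle values.

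Of 19 E1 and E2 enzymes, which activate and carry ubiquitin, 4 rose (21.1%) and 9 fell (47.4%), beside 28.0% and 34.2% of all tested genes. UBE2J1, an E2 of the endoplasmic reticulum, fell by 3.08 on the log2 scale, from 76.2 ± 5.06 to 8.11 ± 0.234 TPM, and UBE2E1 fell by 1.85, from 50.3 ± 5.32 to 13.4 ± 2.64 TPM (SD, n = 3 each, adjusted p of limma 5.5e-06 and 0.00012). UBE2H rose by 1.64, from 32.2, 28.0 and 34.3 TPM to 107, 99.2 and 93.9 TPM (adjusted p of limma 3.5e-05). Of 10 shuttle receptors and p97 cofactors 4 rose and 5 fell. UFD1L, a p97 cofactor, rose from 20.2, 24.2 and 18.3 TPM to 40.8, 49.2 and 46.6 TPM, and SQSTM1, a receptor for ubiquitin in autophagy, from 69.9, 81.9 and 69.1 TPM to 119, 136 and 135 TPM (adjusted p of limma 0.00045 and 0.00062). The shuttles UBQLN2 and RAD23B, which bring substrates to the proteasome, fell from 119 ± 6.06 to 58.0 ± 5.12 TPM and from 396 ± 26.2 to 208 ± 9.12 TPM (adjusted p of limma 0.00015 and 0.00022).

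**Figure D4:**
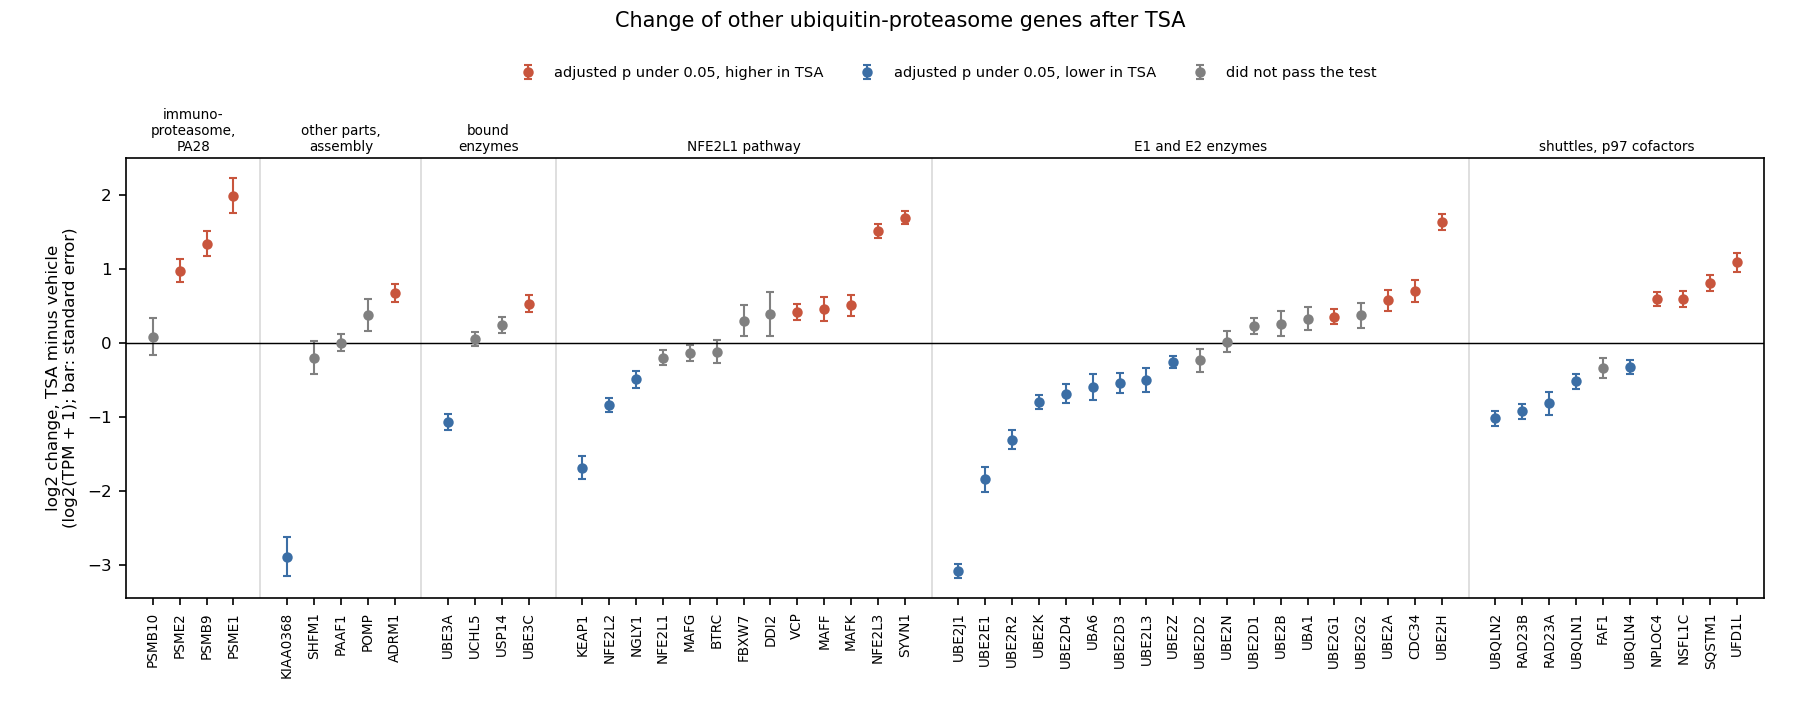
Change of tested ubiquitin-proteasome genes outside the constitutive family, without the genes that encode ubiquitin, TSA minus vehicle on the log2(TPM + 1) scale, with standard errors, by list; colours mark the test as adjusted p under 0.05 (red higher, blue lower) or not passed (grey). PSME1 (1.99) is the highest point, PSMB9 was tested only because of its TSA values, UBE2J1 (−3.08) and KIAA0368 (−2.89) are the lowest points, and every list but the immunoproteasome list has genes past the test on both sides of 0.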

How the data were processed

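Polyadenylated RNA of 6 libraries was sequenced with a stranded kit, per the labels' protocols. The submitters' processing notes list the tools STAR 2.5.3a, featureCounts, edgeR, FastQC 0.11.2 and Picard 1.127 and the build hg19, and say nothing of how each was used. Gene models are those of GENCODE 19, as the deposited table's name says. How the counting treated strand and reads shared between genes is not known from the sources used here. The authors deposited TPM values, each library scaled to the same total. The authors' deposited comparison gives a log2 fold change, a mean log2 level, a likelihood ratio score, a p-value and an FDR per gene, per the file headers. A positive change in it is higher in TSA, as settled against TPM.

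Ratios of TPM between libraries were ratios of whole numbers, which gave whole reads for 100% of 27644 genes detected in 2 or more libraries (relative tolerance 1e-09). They are the smallest whole numbers possible and a lower bound of depth. Within a group, pairs of libraries differed beyond sampling noise (chi-square per degree of freedom 7.33 to 95.1), so none was taken for a duplicate.

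Genes were tested with limma 3.58.1 under R 4.3.3 (lmFit, eBayes with trend) on log2(TPM + 1), a pseudocount of 1, for genes that reached 1 TPM in 3 or more of the 6 libraries, two-sided, adjusted by Benjamini-Hochberg over all tested genes, threshold 0.05, with 6.59 residual degrees of freedom including the prior. The fit was also run on simulated libraries with independent noise of equal size for every gene and few changed genes. These lacked the differences between libraries and the many changed genes of the real data. That run therefore cannot show how the test performs here. The log2(TPM + 1) scale understates changes of low genes. Tables were joined with pandas 2.3.3 and figures drawn with matplotlib 3.10.9. Alternatives were pseudocounts of 0.1 and 0.5, a filter at 5 TPM or none, scaling by median of ratios or by quantiles, no variance trend, robust variance, a block for the replicate number, omission of each library or of both replicate 1 libraries, voom on recovered reads, leaving out mitochondrial genes, and removing length and GC trends. Lengths and GC came from GENCODE 29 (94.8% of genes, 42 of the 43 rows).

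Genes, lists and settings were chosen with earlier results of these data known. Named with values were, per role, the gene with the highest level, the largest rise and the largest fall, the catalytic subunits and genes against the direction of their role. In other lists these were all members of lists of 5 or fewer, otherwise up to 3 with the largest change past the test, plus NFE2L1, POMP, ADRM1, VCP and SQSTM1. DDI1 was not analysed here. Values of a few listed genes are not reported here.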

Additional observations from a re-analysis of the deposited data

How the results depend on the processing

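Of the 25 calls among the proteasome rows, 15 were kept in all 19 alternatives: PSMA5, PSMD2, PSMD3, PSMD4 and PSMD13 higher, and both rows of PSMA1, PSMB2, PSMB5, PSMB6, PSMC1, PSMC3, PSMD5, PSMD7 and PSMD11 lower. The count higher was 5 with no filter and 5 with no variance trend, against 8, and 5 to 10 when a library was left out. The count lower was 11 under median-of-ratios scaling, against 17, and 13 to 16 when a library was left out. When a library was left out, 3264 to 4640 of all genes were higher, against 4929, with 3264 without TSA replicate 3. Same-numbered libraries deviated together with r of 0.63, 0.59 and −0.073, so the numbers were not taken to pair libraries. With the replicate block 10 proteasome rows were higher and 21 lower, among 5637 and 6848 of all genes, and not every library correlated best with its own number. The median change of the proteasome rows was between −0.26 and −0.083 in all alternatives. The sign turned only for genes that had not passed the test. Under median-of-ratios scaling, quantile scaling and voom the change became 0.059, 0.054 and 0.054 for PSMD8, 0.032, 0.036 and 0.027 for PSMA2 row a, and 0.025, 0.083 and 0.020 for PSME4, and under median-of-ratios scaling 0.0038 for PSMA2 row b. With length and GC trends removed it became 0.089 for PSMD12, 0.093 for PSMA2 row a, 0.25 for PSME4 and −0.19 for PSMB10. Without both replicate 1 libraries it became 0.023 for PSMD8 and −0.030 for UCHL5. When a library was left out it ran from −0.18 to 0.045 for PSMD8, −0.23 to 0.037 for PSMA2 row a, −0.26 to 0.016 for PSMA2 row b, −0.59 to 0.17 for PSMG4, −0.38 to 0.029 for PSME4, −0.10 to 0.36 for PSMB10, −0.044 to 0.090 for PAAF1 and −0.0086 to 0.097 for UCHL5. The cause was not tested. The share of calls that were higher was 45.0%, and 51.1% and 50.4% under the 2 scalings. Among the proteasome rows the fewest recovered reads in a library were 161, those of PSMC1.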
